A study of Mus musculus with 15 samples.

Results

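Control kidneys of adult mice were compared between 4 and 7 months of age, to ask how stable the transcriptome of the uninduced kidney was over the period in which the study follows its tumour model. The comparison took the 7 arrays titled as Cre-negative kidney of the 15 in the series, 4 at 4 months and 3 at 7 months, with 1 array per mouse. All mice of the series carried the knock-in Rosa26-LSL-PRCC-TFE3, a fusion gene of renal cell carcinoma placed behind a stop cassette that Cre recombinase removes. The controls were PRCC-TFE3;KSP-Cre(-), so they lacked the Cre transgene and the cassette stayed in place. The other 8 mice, 4 at each age, were Cre-positive (Cre+) and expressed Cre from the promoter of Cdh16, a cadherin of tubule epithelium. They entered the fit and share its estimate of the spread. No group without the knock-in was analysed here, and the labels give neither the sex of the mice nor the time of day at which they were killed. They give no scan or extraction batch either, so age and any such batch cannot be told apart.

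The adult kidney filters blood in glomeruli and recovers most of the filtrate along the nephron. Proximal tubule cells, which take up phosphate, glucose, amino acids and filtered protein, make up most of its mass, and their work rests on mitochondrial respiration. In mice these cells differ between the sexes under the influence of androgens, and kidney genes also follow the circadian clock, an oscillator in which the proteins Clock and Arntl switch on genes of their own repressors.

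RNA came from whole frozen kidney and was hybridised to Affymetrix Mouse Gene 2.0 ST arrays, so the values are log2 signals of whole tissue, and 1 unit is a 2-fold change. In such tissue, fewer cells of a type and less RNA per cell cannot be told apart. The number of arrays limits the precision, since hybridisation has no read depth. A value was available for 22180 genes. The medians of the 7 control arrays lay between 4.90 and 5.01. Defining genes of kidney such as Umod and Slc34a1 were among the 40 brightest, while the dimmest proximal tubule and podocyte markers had means of 5.33 and 5.16. Per-array values are listed in replicate order, mice 1 to 4 at 4 months and mice 1 to 3 at 7 months.

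Across 22180 genes, 1 gene passed the test between the ages. Gm7609, a predicted gene, was at 4.19, 4.25, 3.83 and 4.23 at 4 months and at 5.06, 4.96 and 5.31 at 7 months. The groups did not overlap, and the mean rose from 4.13 ± 0.20 (SD, n = 4) to 5.11 ± 0.18 (SD, n = 3). The difference was 0.98 on the log2 scale (95% interval 0.70 to 1.27, adjusted p = 0.0259, limma with Benjamini-Hochberg adjustment over all genes). That is 0.00451% of the genes tested, and no gene was called lower (0.0%). At an unadjusted p under 0.05 there were 296 higher and 304 lower genes, together 2.71% of all genes where the threshold itself allows 5%. The call on Gm7609 was lost when any 1 of the 7 control arrays was left out, in a fit of the control arrays alone, with both kinds of array fitted, with a replicate block and in a plain linear model, with differences of 0.89 to 1.06 when 1 array was left out. Gm7609 stands outside the naming rule, which leaves out predicted genes, and was named after its value was seen.

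Gm7609 was listed in 6 entries of the array, 5 of them together with Sp100 or Csprs. Those 5 differed by 0.06 to 0.17 between the ages, and all their intervals held 0. The entry that rose is thus the only one that names Gm7609 alone. In the Cre+ kidneys the same entry was higher at 7 months by 0.68 ± 0.12 (SE, adjusted p = 0.00188).

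The gene with the next smallest adjusted p was Fut4, a fucosyltransferase that makes the Lewis x sugar structure. Its values were 4.29, 4.49, 4.34 and 4.55 at 4 months and 3.81, 3.52 and 3.49 at 7 months. No 7-month value reached the lowest 4-month value, yet the difference of -0.81 (95% interval -1.11 to -0.51) did not pass (adjusted p = 0.306). It too was named after its value was seen.

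Most genes differed far less. The median size of the age difference was 0.084 on the log2 scale, the 95th percentile was 0.28 and the 99th percentile 0.44. A difference of 1.5-fold or more was measured for 66 genes, 50 higher and 16 lower, and 99.7% of genes lay within 1.5-fold. In 874 genes (3.94%) the values of the 2 ages did not overlap, 402 higher and 472 lower at 7 months.

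A difference of 2-fold or more was measured for 14 genes, all higher at 7 months. Of these, 10 were immunoglobulin genes or Jchain, and the other 4, Slco1a1, Slc7a13, Cyp4a12a and Cyp2d12, differed between arrays of high and low Y-linked level. With both kinds of array fitted, the age difference was 0.04 for Slco1a1 and 0.08 for Slc7a13. It was still 0.52 for Cyp4a12a and 0.89 for Cyp2d12. None of the 14 passed the test between the ages, and in 13 of them the values of the 2 ages overlapped.

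**Figure D1:**
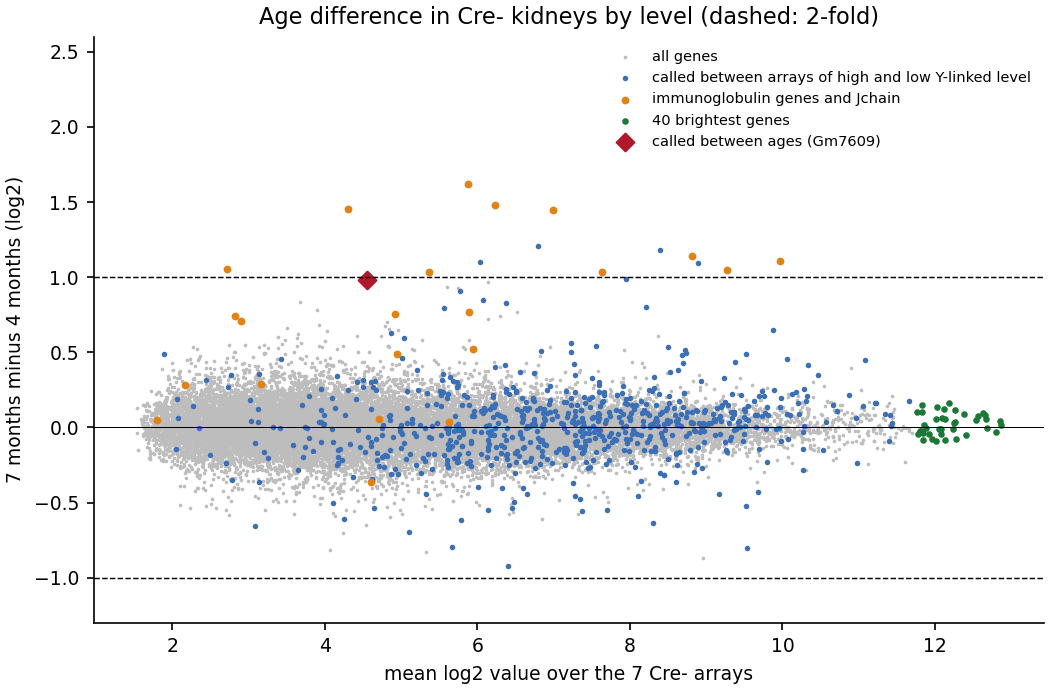
Difference between 7 and 4 months (vertical, log2) against the mean log2 value over the 7 Cre- arrays (horizontal), 1 point per gene. The 40 brightest genes lie within 0.16 of 0, Gm7609 is the 1 called gene at 0.98, and the points above the upper dashed line are 10 immunoglobulin genes or Jchain and 4 genes that differ between arrays of high and low Y-linked level.

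The size of change that these arrays leave outside their error was read from the 95% intervals. The interval lay wholly within a 2-fold change for 21921 genes (98.8%) and wholly within a 1.5-fold change for 19606 genes (88.4%). By an equivalence test, which asks whether a change is smaller than a set size and was adjusted over all genes, 22015 genes (99.3%) changed by less than 2-fold and 20568 (92.7%) by less than 1.5-fold. The interval reached a median of 0.29 to either side of the estimate, a factor of 1.23. It reached 0.42 (a factor of 1.34) at the 90th percentile and 0.76 (a factor of 1.69) at the 99th. The intervals are for 1 gene at a time, so some of those 22180 do not hold the true value.

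At smaller limits the share fell steeply. The interval lay within 1.3-fold for 46.7% of genes and within 1.2-fold for 7.29%, so for most genes the intervals reach past a change of that size. Precision changed little with signal. In the dimmest 20% of genes, with means up to 3.23, the interval reached a factor of 1.23, and in the brightest 20%, with means from 7.15, a factor of 1.20. A dim probe responds less to a change in RNA, so for dim genes a narrow interval limits the signal and not necessarily the transcript.

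**Figure D2:**
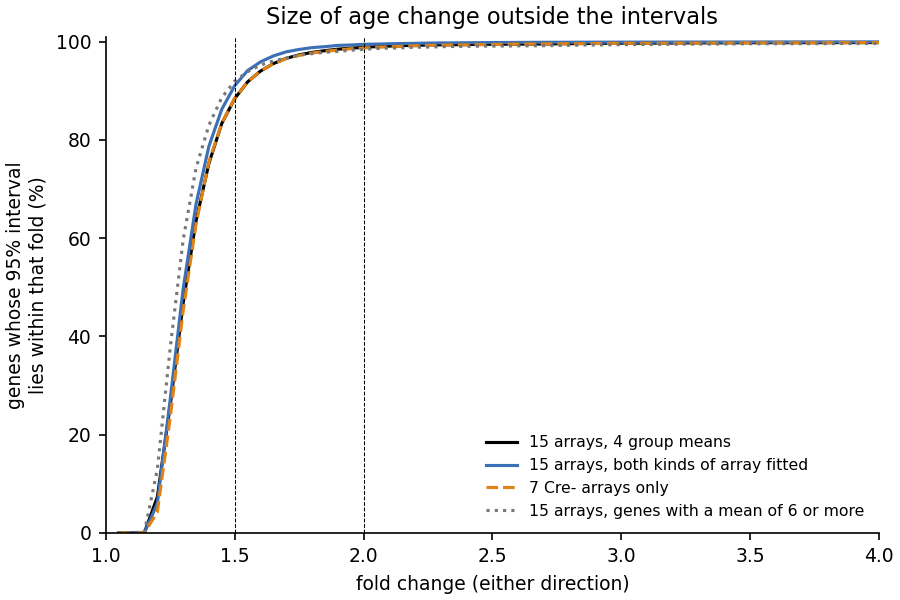
Share of genes (vertical, percent) whose 95% interval for the age difference lies within a given fold change in either direction (horizontal). The solid black line passes 46.7% at 1.3-fold, 88.4% at 1.5-fold and 98.8% at 2-fold, and the dashed line for the 7 Cre- arrays alone lies at 45.1%, 88.5% and 98.7%.

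The 259 genes whose interval was not within 2-fold were sorted by group. Of these, 123 were called between arrays of high and low Y-linked level, beside 701 of all 22180 genes. Once both kinds of array were fitted, 109 of the 123 came within 2-fold. The main fit counts a difference between kinds as spread, so wide intervals of such genes follow from how it was built. Among the other 136, 20 were immunoglobulin genes, 17 were genes of microRNAs and other small RNAs, and 99 had a mean under 6, with some genes in more than 1 of these groups. The widest interval of all, 5.07 to either side, was that of Xist.

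The brightest signals of the control kidney came from the respiratory chain, housekeeping and the proximal tubule. The order is one of probe signal and not of transcript abundance, since probes differ in their response, and signals near the top of the range respond less. The 40 genes of highest mean lay between 11.8 and 12.9. Of these, 9 are encoded by the mitochondrial genome, namely ND1, ND2, ND3, ND4, ND4L and ND5 of complex I, CYTB of complex III, and COX1 and COX3 of complex IV. ND4 was at 12.94, 12.997, 12.77 and 12.64 at 4 months and at 13.12, 12.83 and 12.70 at 7 months. The ages overlapped and differed by 0.05 (95% interval -0.24 to 0.33). COX3 had the largest difference among the 40, at 0.16 (-0.19 to 0.51), with 12.26, 12.32, 12.02 and 11.84 at 4 months and 12.51, 12.21 and 12.09 at 7 months. In each of these mitochondrial genes the values of both ages overlapped.

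Proximal tubule genes among the brightest were Slc34a1 (the phosphate cotransporter NaPi-2a), Slc27a2 (a fatty acid transporter), Miox (myo-inositol oxygenase), Acy3 (an aminoacylase), Slc3a1 (of the cystine transporter), Slc4a4 (the bicarbonate cotransporter NBCe1), Lrp2 (megalin) and Kap. Slc34a1 was at 12.08, 12.03, 12.13 and 12.04 at 4 months and at 12.11, 12.28 and 12.19 at 7 months, a difference of 0.12 (95% interval -0.11 to 0.35). Of the distal nephron, Umod (uromodulin), Egf, Klk1 (tissue kallikrein) and Atp1b1 (a sodium pump subunit) were among the 40. Klk1 was at 12.41, 12.62, 12.57 and 12.54, then at 12.78, 12.49 and 12.56, with a difference of 0.07 (-0.24 to 0.38). The housekeeping genes Gapdh, Eef1a1, Eif4a1, Fth1 and Hspa8 and the nuclear RNAs Rn7sk and Malat1 were there too. Gapdh was at 12.12, 12.20, 12.22 and 12.14 and at 12.13, 12.14 and 12.005, so the 2 ages lay within 0.22 of each other.

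All 40 brightest genes differed by less than 1.2-fold between the ages, 21 higher and 19 lower, with a median size of 0.053. The interval lay within 1.5-fold for 37 of them and within 2-fold for 39, beside 88.4% and 98.8% of all genes. The gene outside 2-fold was Kap, the kidney androgen-regulated protein. Its values were 12.28, 11.96, 12.17 and 11.81 at 4 months and 11.91, 12.08 and 12.14 at 7 months, close together in all 7 arrays. Its interval of -1.38 to 1.36 takes its width from the Cre+ arrays that share the estimate of the spread.

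Markers of the nephron, glomerulus and vessels were taken from lists of 72 measured genes, and none was called between the ages. Their intervals lay within 2-fold for 71 and within 1.5-fold for 58, and the median difference was -0.010, beside -0.0086 over all genes. The proximal tubule list (17 of 18 measured) had a median of -0.0093, with a lowest difference of -0.23 for Slc5a12, a lactate transporter, and a highest of 0.18 for Acsm2. Acsm2 was the 1 marker whose interval reached past 2-fold (-0.68 to 1.03).

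Umod, made in the thick ascending limb, was at 11.76, 12.01, 11.69 and 11.95 at 4 months and at 11.89, 11.68 and 12.02 at 7 months (difference 0.02, 95% interval -0.21 to 0.25). All 9 measured genes of that segment, among them Slc12a1, the target of loop diuretics, had intervals within 1.5-fold. In the distal convoluted tubule Slc12a3, the thiazide-sensitive cotransporter, was at 11.01, 11.52, 11.28 and 11.53 and at 11.67, 11.32 and 11.49 (difference 0.16, -0.19 to 0.51). Calb1, a calcium-binding protein of that segment, had the highest difference of its list, 0.30 (-0.16 to 0.77).

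Aqp2, the vasopressin-regulated water channel of the collecting duct, was at 8.78, 8.74, 8.15 and 9.12 at 4 months and at 9.12, 8.85 and 9.05 at 7 months. Its difference of 0.31 (-0.05 to 0.67) was the highest of the 9 principal cell genes, and the ages overlapped. The 11 intercalated cell genes, which serve acid and base transport, ranged from -0.18 for Atp6v1b1 to 0.08 for Rhbg. In podocytes, the filter cells, Nphs1 (nephrin) was at 6.22, 6.33, 6.27 and 6.51 and at 6.71, 6.22 and 6.37 (difference 0.10, -0.22 to 0.42).

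The medians of the 6 podocyte and 10 endothelial genes were -0.10 and -0.098. In each list 1 gene lay above 0, and over all genes 47.1% did. The lowest endothelial value was that of Ehd3, a trafficking protein of glomerular endothelium, at 8.48, 8.54, 8.69 and 8.73 at 4 months and at 8.11, 8.25 and 8.24 at 7 months. Its values did not overlap, but its interval of -0.89 to 0.07 held 0 and it was not called.

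Markers of other cell types were not called either. The 13 macrophage genes had a median of 0.041 and the 10 lymphocyte genes one of -0.12. The widest-reaching interval in those 2 lists belonged to Cd3e, a chain of the T cell receptor complex, at 5.18, 5.25, 5.03 and 5.45 at 4 months and at 4.68, 4.64 and 4.72 at 7 months. Its difference was -0.55 (95% interval -0.95 to -0.15) and was not called. Fibroblast and matrix genes (11 measured) had a median of -0.038 and the MHC class II genes (6 measured) of -0.077. Adrenal cortex genes, a check on tissue from beside the kidney, had means from 2.10 to 5.19 and a median difference of -0.059. Over the 34 lists 303 of 345 genes were measured, none was called, and 279 had intervals within 2-fold.

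**Figure D3:**
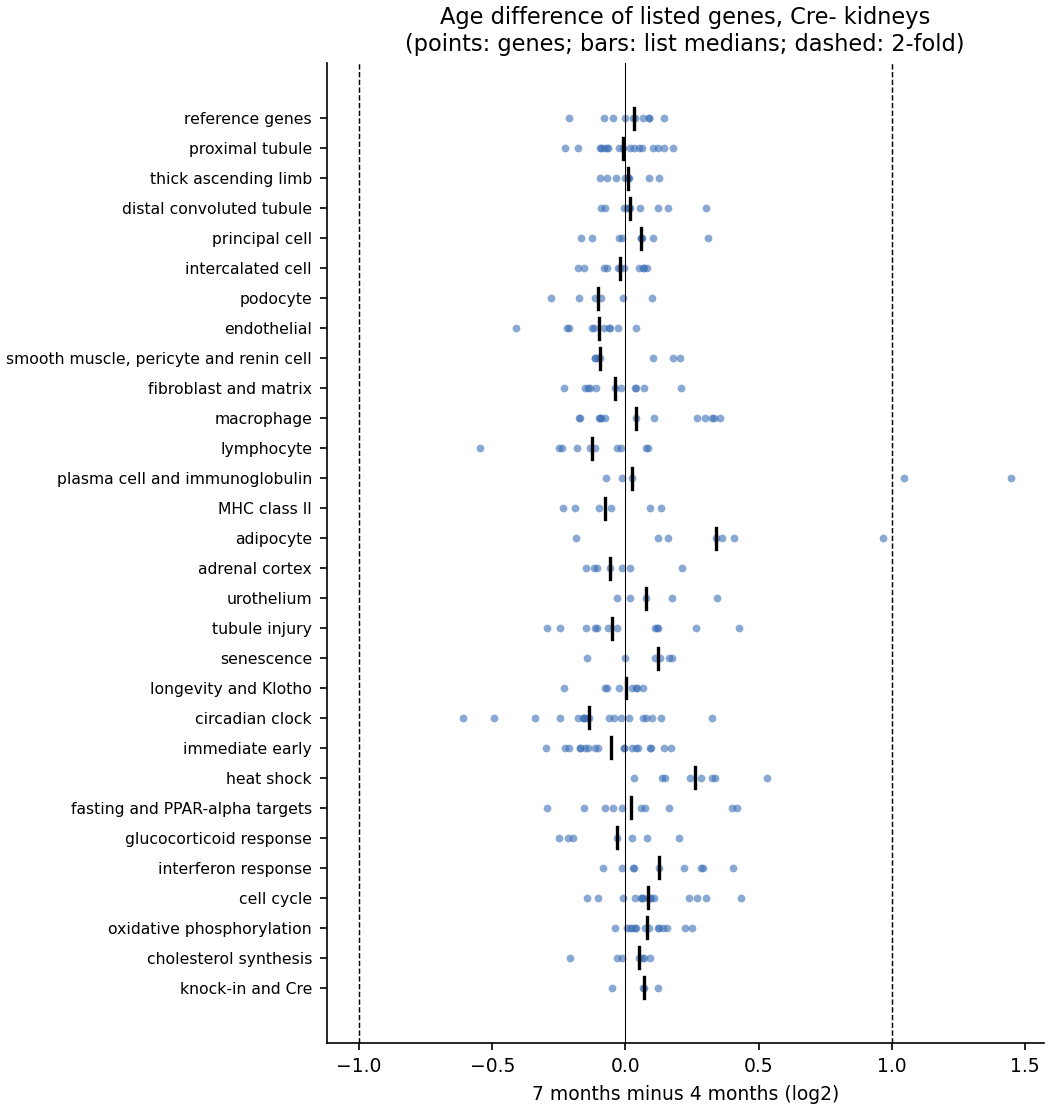
Age difference (horizontal, log2, 7 months minus 4 months) of the measured members of 30 gene lists in Cre- kidneys, with 1 point per gene and a bar at each list's median. All points lie within 2-fold except Ighm at 1.05 and Jchain at 1.45.

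The control arrays fell into 2 kinds by the level of Y-linked genes, at both ages. The mean of the 4 measured Y-linked genes was 6.14 and 6.18 in mice 1 and 3 at 4 months and 6.13 and 6.15 in mice 2 and 3 at 7 months. It was 2.73, 2.61 and 2.71 in mice 2 and 4 at 4 months and mouse 1 at 7 months. Xist, the RNA of the inactive X chromosome, ran the opposite way, from 3.36 to 3.93 in the 4 arrays of high Y-linked level and from 10.2 to 10.3 in the 3 arrays of low level. These 2 kinds of array were defined from the data, since the labels do not give sex. They were not balanced, with 2 of 4 arrays high at 4 months and 2 of 3 at 7 months.

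Pairs of control arrays of the same kind correlated at 0.990 to 0.994 across genes (9 pairs) and pairs of different kind at 0.983 to 0.987 (12 pairs). Within the same kind, the median was 0.992 for pairs of the same age and 0.992 for pairs of different age. The component of largest variance held 43.3% of the variance of the 7 arrays, and its scores ran from 13.1 to 21.9 in the high and from -26.6 to -21.4 in the low arrays. These genes are not independent points, and the figures describe the arrays.

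A comparison of the 2 kinds, added after the data were seen, was made within control kidneys as the mean over both ages. With Y-linked genes and Xist left out, 447 genes (2.02%) were higher and 250 (1.13%) lower in the high arrays, beside 1 gene between the ages. Among them 116 higher and 55 lower genes differed by 2-fold or more. The 697 genes called in all became 434, 390 and 415 without mouse 1, 2 or 3 at 4 months. Without mouse 1 at 7 months no low array was left at that age. The kinds were then compared at 4 months alone, with 346 genes called, which is not the same comparison.

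Slco1a1, an organic anion transporter, was at 10.11, 2.38, 10.20 and 2.42 at 4 months and at 2.83, 9.88 and 9.75 at 7 months. It was 7.37 ± 0.16 (SE) higher in the high arrays (adjusted p = 1.56e-12), while both ages held values at either end. Slc7a13, a proximal tubule amino acid transporter, was at 11.22, 5.46, 11.20 and 3.69 and at 4.68, 11.38 and 11.17, a difference between kinds of 6.62 ± 0.31 (adjusted p = 1.13e-08). Other genes far higher in the high arrays were Cyp2j13 (5.94), Pzp (5.64), Ugt2b37 (5.21) and Cyp7b1 (4.21), of the cytochrome, protease inhibitor and glucuronosyltransferase families. Cyp7b1, Slco1a1 and Slc7a13 are known as male-biased genes of mouse kidney.

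Slc7a12, another amino acid transporter, ran the other way, at 5.89, 11.74, 6.97 and 11.76 at 4 months and at 11.87, 7.51 and 8.27 at 7 months. It was lower in the high arrays, with a difference of -4.65 ± 0.24 (adjusted p = 3.13e-08). Cyp4a14, a fatty acid hydroxylase, was at 5.68, 10.70, 6.72 and 10.47 and at 10.47, 6.38 and 7.86, a difference between kinds of -3.87 ± 0.34 (adjusted p = 8.22e-06). In both genes all 4 high arrays lay below all 3 low arrays. Abcc3, Slc17a2, Hdc (which makes histamine) and Akr1c18 were lower too, with differences of -3.48, -3.25, -3.08 and -2.86.

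Of the 17 measured genes of the proximal tubule list 2 were called between kinds, Slc22a6 and Acsm2, both higher in the high arrays, where 2.02% of all genes were. Slc22a6, the organic anion transporter OAT1, was at 11.38, 10.54, 11.51 and 10.54 at 4 months and at 10.64, 11.43 and 11.33 at 7 months. It was 0.82 ± 0.15 higher in the high arrays (adjusted p = 0.00695), against an age difference of 0.15 (95% interval -0.41 to 0.70). Of the 40 brightest genes 1 was called between kinds, a share near those of all genes (2.02% higher and 1.13% lower). It was Acy3, higher by 0.74 ± 0.13 (adjusted p = 0.00373).

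The most variable genes of the control mice were largely those called between kinds. The median SD within an age group was 0.17 and the 95th percentile 0.37. An SD of 1 or more was measured for 70 genes, 63 of which were called between kinds, beside 701 of all 22180 genes. Each age group held both kinds of array, so a large SD in a gene that splits by kind follows from the grouping. Of the 20 most variable genes with a mean of 6 or more, 19 were called between kinds, Xist among them, and the other was Ucp1.

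**Figure D4:**
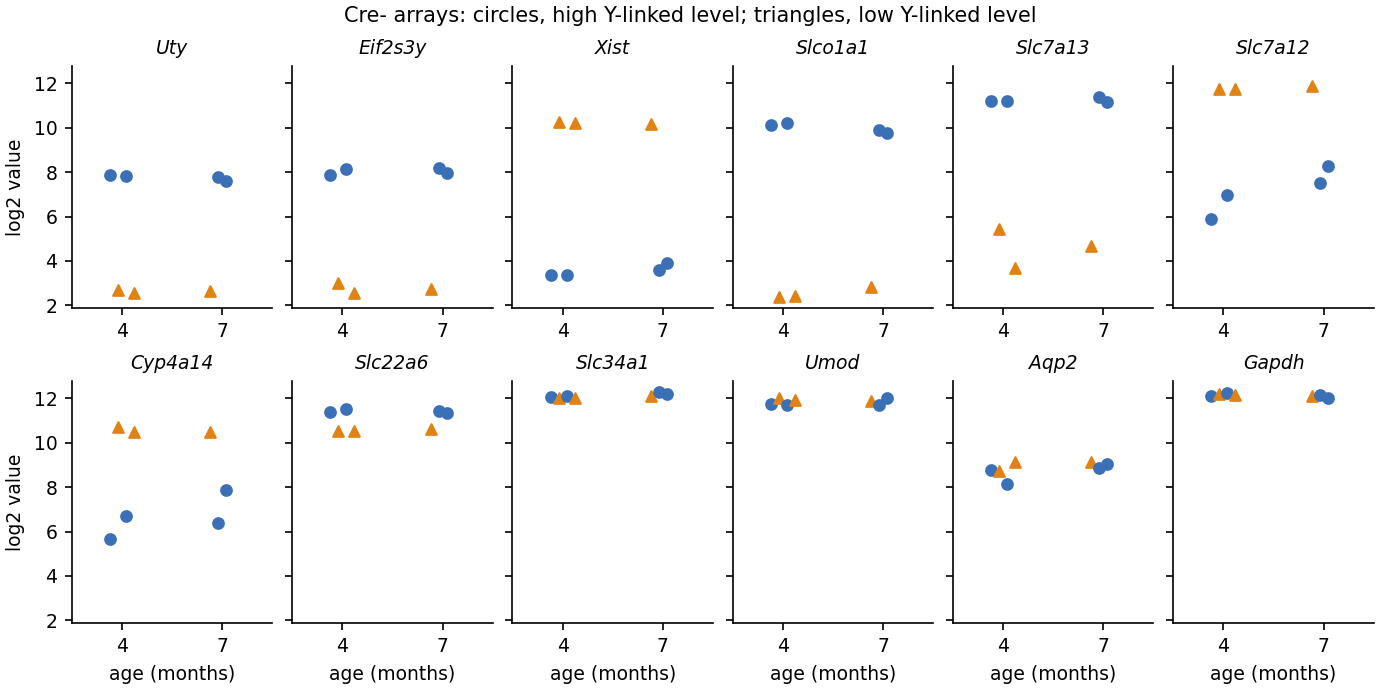
Log2 values (vertical) of 12 genes in the 7 Cre- arrays by age (horizontal, months), with 1 point per mouse. Uty, Eif2s3y, Xist, Slco1a1, Slc7a13, Slc7a12, Cyp4a14 and Slc22a6 split by kind of array at both ages, while Umod, Aqp2 and Gapdh do not. Slc34a1 splits by a far smaller gap and was not called between kinds.

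Age was then tested within each kind. Among the high arrays (2 mice at each age) and among the low arrays (2 mice and 1 mouse) no gene was called, nor did the age difference differ between kinds for any gene (limma). At an unadjusted p under 0.05 there were 856, 889 and 817 genes. With 1 low array at 7 months, that mouse was assumed to vary like the others. When both kinds were fitted and their age differences averaged, no gene was called, and 22060 genes had intervals within 2-fold and 20189 within 1.5-fold. Slco1a1 then differed by 0.04 (95% interval -0.31 to 0.39) between the ages instead of 1.20 (-3.30 to 5.71), and Slc7a13 by 0.08 (-0.59 to 0.76). Slc7a12 differed by 0.79 (0.27 to 1.31) in that fit, with high arrays at 5.89 and 6.97 at 4 months and 7.51 and 8.27 at 7 months, and was not called.

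Clock genes were listed because RNA of a clock gene depends on the hour of collection, which the labels do not give. For the genes that lay lowest at 7 months, Ciart and Per1, the 250 bases before the start of the transcript are printed, since both are known targets of Clock and Arntl through the E-box. Capitals mark the E-box CACGTG, which reads the same on both strands. The sequences are from RefSeq, build GRCm38.p6, written in the direction of the gene.
Ciart, chr3:95882229-95882478, minus strand: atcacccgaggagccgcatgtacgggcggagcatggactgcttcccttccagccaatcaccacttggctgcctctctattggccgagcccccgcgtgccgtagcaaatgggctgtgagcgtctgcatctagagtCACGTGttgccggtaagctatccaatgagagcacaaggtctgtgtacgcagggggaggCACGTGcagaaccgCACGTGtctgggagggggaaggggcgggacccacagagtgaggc
Per1, chr11:69098699-69098948, plus strand: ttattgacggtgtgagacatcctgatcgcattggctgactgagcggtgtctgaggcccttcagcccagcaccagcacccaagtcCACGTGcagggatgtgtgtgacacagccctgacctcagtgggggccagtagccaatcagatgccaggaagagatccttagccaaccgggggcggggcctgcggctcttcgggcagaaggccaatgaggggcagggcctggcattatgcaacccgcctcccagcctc
The Ciart window holds 3 E-boxes, which begin 116, 58 and 44 bases before the start, and the Per1 window printed holds 1, at 166. A second Per1 window in the table, chr11:69099902-69100201, holds none. Of 32851 promoter windows in the table (250 bases before to 50 after a start), 7.15% hold at least 1 E-box and 29 windows (0.0883%) hold 3 or more. Of the 17 measured clock genes with a window, 5 had an E-box in one, namely Ciart, Per1, Cry1, Bhlhe41 and Tef. That count is of genes, some with several windows, so it cannot be set directly beside the 7.15% of windows. Cry2 and Arntl had none. Whether an E-box goes with the age difference was not tested. A match describes letters in a window and not a bound site.

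Values were available for 19 clock genes. None was called between the ages. Of the 19, 6 lay above 0, beside 47.1% of all genes, and 13 lay below, with a median of -0.14. Ciart, a repressor of Clock and Arntl, was at 7.11, 6.85, 7.18 and 7.31 at 4 months and at 6.59, 6.43 and 6.49 at 7 months. The groups did not overlap, and the difference was -0.61 (95% interval -0.94 to -0.28). Per1, a core repressor, was at 7.70, 8.30, 7.86 and 7.83 and at 7.65, 7.39 and 7.25, lower in all 7-month mice than in any 4-month mouse (difference -0.50, -0.89 to -0.10).

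Cry2, which acts with the Per proteins, was at 6.57, 6.55, 6.67 and 6.67 at 4 months and at 6.38, 6.36 and 6.07 at 7 months (difference -0.34, -0.67 to -0.01). Arntl, the activator, was at 3.54, 3.97, 3.90 and 3.59 and at 3.95, 4.09 and 4.18 (difference 0.33, 0.04 to 0.62). Ciart, Per1, Cry2 and Arntl are the 4 clock genes whose intervals exclude 0, and Arntl lay opposite to the other 3. Over all genes, 2.71% had an unadjusted p under 0.05 in either direction. The nuclear receptor Nr1d1 differed by -0.04 (-0.53 to 0.44) and the output factor Dbp by -0.14 (-0.53 to 0.24).

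The Cre+ kidneys, other mice of the same 2 ages, gave a difference of -0.85 ± 0.15 (SE) for Ciart (adjusted p = 0.00126), 0.45 ± 0.13 for Arntl (adjusted p = 0.0309) and -0.30 ± 0.17 for Per1 (adjusted p = 0.278). There 3 clock genes were called higher and 5 lower, where 4.12% and 6.71% of all genes were. Whether hour of collection, age or batch moved with these genes cannot be told apart.

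**Figure D5:**
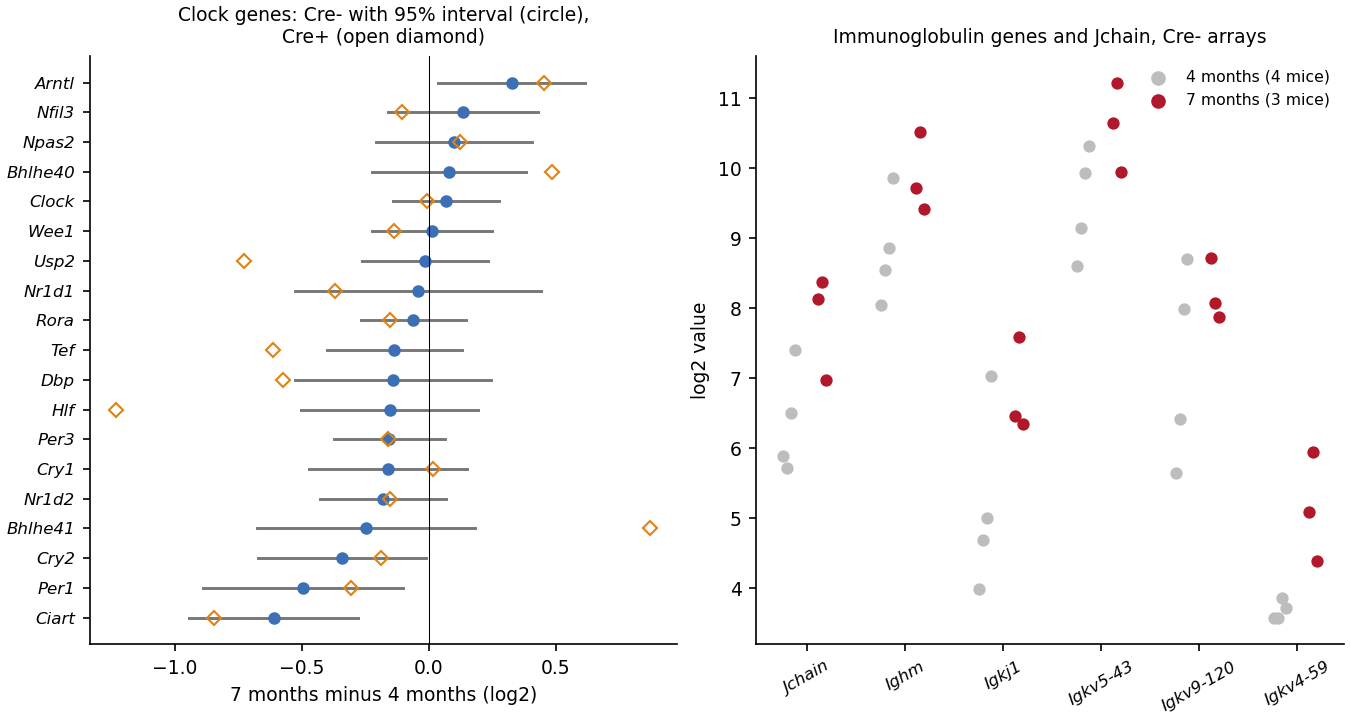
Left, age difference (horizontal, log2) of 19 clock genes in Cre- kidneys with 95% intervals, and in Cre+ kidneys as open diamonds: Ciart lies lowest in Cre- at -0.61 and Arntl highest at 0.33. Right, log2 values of 6 immunoglobulin genes or Jchain by mouse, where the 4-month mice run from 3.99 to 7.03 for Igkj1 and the 7-month mice from 6.34 to 7.59, and the ages overlap for Jchain and Ighm.

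Immunoglobulin genes had the highest age differences on the arrays. They are transcribed by B cells and above all by plasma cells, and Jchain joins the chains of IgM and IgA. The family was looked at as a whole after its values were seen. Of 22 immunoglobulin genes including Jchain, 21 were higher at 7 months, with a median difference of 0.76. In 3 the values of the 2 ages did not overlap, where 3.94% of all genes did not. The intervals of 7 lay above 0, where 2.71% of all genes had an unadjusted p under 0.05 in either direction, and none was called.

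Jchain was at 5.89, 5.72, 6.50 and 7.40 at 4 months and at 8.14, 8.37 and 6.97 at 7 months. Mouse 4 at 4 months lay above mouse 3 at 7 months, so the groups overlapped, and the difference was 1.45 (95% interval 0.31 to 2.59). Ighm, the constant region of IgM, was at 8.05, 8.55, 8.86 and 9.86 and at 9.71, 10.51 and 9.41 (difference 1.05, 0.05 to 2.05). In 6 of the 7 entries for Ighm the mean was higher at 7 months, and the range was -0.47 to 1.41.

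Igkj1, a joining segment of the kappa light chain, was at 3.99, 4.70, 5.01 and 7.03 at 4 months and at 6.47, 7.59 and 6.34 at 7 months. At 1.62 (0.32 to 2.92) it had the largest difference of any gene. Igkv8-30 was the 1 member below 0, at -0.36 (-1.97 to 1.24). These genes share sequence and come from the same cells of each mouse, so they are not independent of one another.

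Genes of B cells and plasma cells other than immunoglobulins had intervals that held 0. Cd79a, of the B cell receptor, differed by -0.02 (95% interval -0.47 to 0.43), Ms4a1 (CD20) by -0.24 (-0.75 to 0.27), and the plasma cell genes Mzb1 and Derl3 by -0.01 (-0.46 to 0.43) and 0.03 (-0.53 to 0.58). In the Cre+ kidneys Ighm was higher at 7 months by 1.99 ± 0.44 (adjusted p = 0.00786) and Jchain by 1.496 ± 0.50 (adjusted p = 0.0659). The age differences of the 2 genotypes differed by 0.94 ± 0.64 (SE) for Ighm (adjusted p = 0.498).

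No gene on the lists for ageing and injury was called. Kl (Klotho), made mainly in the distal tubule and known to decline in kidney disease, was at 10.87, 11.01, 10.90 and 10.70 at 4 months and at 10.98, 10.89 and 10.86 at 7 months (difference 0.04, 95% interval -0.27 to 0.35). The senescence genes Cdkn2a and Cdkn1a, both inhibitors of cyclin-dependent kinases, differed by 0.11 (-0.20 to 0.42) and 0.16 (-0.23 to 0.55). Cdkn2a was at 4.22, 4.28, 4.00 and 4.14 and at 4.09, 4.54 and 4.18. Cdkn1a was at 5.51, 6.09, 5.85 and 5.83 and at 6.12, 5.56 and 6.27. All 6 measured senescence genes had intervals within 1.5-fold.

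Havcr1 (KIM-1), which proximal tubule cells express after injury, was at 4.60, 4.53, 4.44 and 4.24 at 4 months and at 4.79, 4.15 and 4.10 at 7 months (difference -0.11, -0.96 to 0.75). Lcn2 (NGAL) was at 5.58, 6.65, 5.22 and 6.07 and at 5.75, 5.80 and 6.88 (difference 0.26, -0.48 to 1.01). The 12 injury genes had a median of -0.049. Mki67, a marker of dividing cells, was at 4.72, 5.56, 4.80 and 4.90 and at 5.70, 5.38 and 5.20, with a difference of 0.43 (0.04 to 0.83) that was not called. Of the 15 cell cycle genes 12 lay above 0, beside 47.1% of all genes, with a median of 0.084.

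The genes of the model itself were not called and had intervals within 1.5-fold. Gpnmb, a transcriptional target of TFE3, was at 4.63, 4.48, 4.34 and 4.41 at 4 months and at 4.51, 4.05 and 4.69 at 7 months (difference -0.05, 95% interval -0.43 to 0.33). Tfe3 was at 6.51, 6.48, 6.61 and 6.41 and at 6.61, 6.51 and 6.60 (difference 0.07, -0.14 to 0.29). Prcc was at 6.54, 6.62, 6.42 and 6.46 and at 6.90, 6.43 and 6.39 (difference 0.07, -0.21 to 0.34). Cdh16 was at 9.64, 9.83, 9.77 and 9.74 and at 10.06, 9.75 and 9.78 (difference 0.12, -0.15 to 0.40). The probes were not checked for whether they lie in the fused parts of Tfe3 and Prcc.

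All 8 measured heat shock genes lay above 0, beside 47.1% of all genes, with a median difference of 0.26. The intervals of 2 of them, Hsp90aa1 and Hspb1, excluded 0, where 2.71% of all genes had an unadjusted p under 0.05 in either direction. None of the 8 was called. Without mouse 3 at 7 months the median of the heat shock list was -0.0084. Hspa1a, an inducible chaperone, was at 6.73, 6.52, 6.31 and 7.34 at 4 months and at 6.69, 6.55 and 8.53 at 7 months. Hspa1b was at 8.13, 7.39, 6.70 and 8.37 and at 7.64, 6.99 and 9.04. In both the highest value was that of mouse 3 at 7 months, and without that mouse the difference of Hspa1a was -0.10 instead of 0.53 (95% interval -0.20 to 1.27). The mean of the 8 heat shock genes was 7.18 to 7.57 at 4 months, 7.42 and 7.31 in mice 1 and 2 at 7 months and 8.09 in mouse 3. That array also had the lowest of the array weights of the controls, 0.474 against 0.774 to 1.71, and the highest mean of the interferon genes, 6.07 against 5.52 to 5.68. The part of array quality in these values was not tested.

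Fat genes varied between the mice. Ucp1, the uncoupling protein of brown fat, was at 7.28, 3.94, 6.42 and 5.24 at 4 months and at 8.58, 4.26 and 7.23 at 7 months, a range of 4.6 over the 7 mice. Cidea, a lipid droplet protein of brown fat, was at 6.78, 4.87, 6.02 and 5.67 and at 7.11, 5.51 and 7.05, and Fabp4, of fat cells, at 8.76, 8.43, 7.96 and 8.19 and at 9.66, 8.22 and 8.21. The list of 7 fat genes had the highest median of the cell type lists, 0.34, and 3 of the 7 had intervals within 2-fold. Its mean was 5.61 to 6.31 at 4 months and 6.88, 5.64 and 6.06 at 7 months, highest in mouse 1, and without that mouse the median difference of the adipocyte list was -0.033 instead of 0.34. Whether fat beside the kidney was part of the samples was not tested.

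Over all genes, on a list or not, the largest differences with no overlap and a mean of at least 6 in the higher group are given as values. None was called. Ciart, Per1 and Ehd3 are also on the lists above. Below 0, after Ciart, they were Id3 (-0.57), Chst2 (-0.51), Slc7a2 (-0.50), Per1 (-0.50), Ccn2 (-0.46), Tmem47 (-0.46), Nrde2 (-0.44), Pxmp2 (-0.43), Ehd3 (-0.41), Lhfp (-0.39) and Mylip (-0.38). Id3, an inhibitor of helix-loop-helix factors, was at 7.30, 7.60, 7.76 and 7.60 at 4 months and at 7.02, 6.75 and 7.21 at 7 months. Ccn2 (connective tissue growth factor) was at 7.74, 7.996, 8.04 and 7.82 and at 7.29, 7.42 and 7.60, and its other entry, at a mean of 4.35, differed by 0.099. The other entry of Tmem47, at a mean of 3.24, differed by -0.047. Chst2, a sulfotransferase, was at 6.54, 6.53, 6.42 and 7.13 and at 5.81, 6.24 and 6.40.

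Above 0 they were Mir669m-1 (0.93), Apoo (0.48), Ube2h (0.37), Bri3bp (0.37), Hspe1 (0.37), Mettl7a3 (0.36), Kctd10 (0.35), Desi1 (0.35), Plekho1 (0.34), Nat8f7 (0.33), Stat5a (0.33) and Tmem126a (0.33). The other entry of Ube2h, at a mean of 3.30, differed by 0.17. Mir669m-1, a microRNA gene, was at 5.32, 5.54, 5.46 and 4.51 at 4 months and at 6.47, 6.41 and 5.55 at 7 months, so the ages were apart by 0.01. Apoo, a subunit of the complex that shapes mitochondrial cristae, was at 6.90, 6.90, 6.68 and 6.01 and at 7.18, 6.96 and 7.16. Hspe1, the mitochondrial co-chaperone Hsp10, was at 7.30, 7.24, 7.22 and 6.96 and at 7.71, 7.50 and 7.43. Tmem126a, a mitochondrial membrane protein, was at 7.85, 7.84, 7.93 and 7.46 and at 8.15, 8.12 and 8.03. Of the 14 measured genes of oxidative phosphorylation 13 lay above 0, beside 47.1% of all genes, with a median of 0.080, and none was called. The highest was Cycs (cytochrome c) at 0.25 (-0.09 to 0.59), and its other entries differed by 0.01 to 0.68. The mean of that list was 9.81 to 9.98 at 4 months and 9.98 to 10.04 at 7 months, and the ages overlapped. Mouse 4 at 4 months was lowest for the list and for Apoo, Hspe1 and Tmem126a.

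The control comparison was set beside the same span in Cre+ kidneys, which share no mouse with it but share the fit. In Cre+ kidneys 914 genes (4.12%) were higher and 1488 (6.71%) lower at 7 months, with a median size of the difference of 0.17 against 0.084 in controls. The difference between the 2 age differences was itself called for 475 genes (2.14%). That count was 261 without mouse 2 and 309 without mouse 4 of the 4-month controls, and 225 without mouse 2 of the 7-month controls. Those 475 genes were chosen by that difference, so unlike sizes in the 2 genotypes follow from the choice. Their median size was 0.92 in Cre+ and 0.10 in Cre- kidneys. The control interval lay within 2-fold for 468 and within 1.5-fold for 383 of the 475, beside 98.8% and 88.4% of all genes. Across all genes the 2 sets of age differences correlated at 0.012 (22180 genes, which are not independent, from separate mice).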

How the data were processed

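RNA of whole kidney (100 ng per array, with a RIN above 7 per the labels' protocols) was measured on 15 arrays. The deposited values are log2 signals that the authors made with RMA in Partek 6.6, per the submitters' processing notes. They ran from 1.04 to 13.12 over 41345 entries, with no missing value. For the build of the array annotation, nothing was stated in the sources used here.

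Of these entries 23521 had 1 gene symbol, 1814 several and 16010 none. Symbols were updated by Entrez ID through RefSeq GRCm38.p6 for 23328 entries, and 193 kept the platform's symbol. For 1082 genes with several entries, the entry of highest mean over all arrays was taken, which left 22180 genes. Groups were taken from the sample titles.

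The 15 arrays entered 1 fit with a mean for each of the 4 groups, in limma 3.58.1 under R 4.3.3 (lmFit and eBayes, 11 residual degrees of freedom before moderation), with Benjamini-Hochberg adjustment over all genes and a threshold of 0.05. Errors marked SE and the 95% intervals come from that fit. Replicates are separate mice. The labels do not state that replicate numbers pair the samples, so the main fit held no block. The kinds of array were defined from the data, and their contrasts were added after the data were seen. Named genes were the 12 largest differences in each direction among genes with no overlap and a mean of at least 6 in the higher group, predicted genes left out, with the 40 brightest, the 20 most variable and the genes on lists. Members and lists were chosen with earlier results of these data known. Alternatives changed the samples in the fit, the dim filter, the normalization, the variance model, array weights, covariates and the choice of entry, and left out each control array in turn. Tables and figures used Python 3.11.15, pandas 2.3.3, numpy 2.4.6 and matplotlib 3.10.9. The steps were tested on simulated data. Promoter sequences are from RefSeq GRCm38.p6.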

Additional observations from a re-analysis of the deposited data

Results flagged for a closer look

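A total of 54 genes and 33 lists were looked at for an array far from the others of its group, which chance gives in about 1 in 20 groups. At 4 months, mouse 3 lay apart for Gm7609, at 3.83, and mouse 4 lay apart for Chst2, at 7.13.

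The age difference differed between Cre+ and Cre- kidneys for 475 genes by the interaction term in limma. Among the genes with values given by array, the Cre+ age difference minus the Cre- one was 0.87 for Fut4, -0.96 for Slc34a1, -0.65 for Tmem126a, 1.35 for Cd3e, -1.002 for Kl and 1.45 for Gpnmb.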

How the results depend on the processing

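The 1 gene called higher at 7 months became 0 with only the 7 Cre- arrays, with a replicate block, with Y-linked level as 2 kinds, over all entries of the table and in a plain linear model. Leaving out 1 array gave 0 to 0. The replicate block joined mice that share a number, which the labels do not state to be a pair. The deviations of control mice of the same number at the 2 ages correlated at -0.47, -0.30 and 0.21. Intervals within 2-fold and within 1.5-fold and the equivalence test gave 11334, 10261 and 11399 genes after a filter on dim genes, which tests fewer genes, and 38300, 29943 and 39230 over all entries, which tests more. Leaving out 1 array gave 21681 to 21896, 17354 to 18869 and 21825 to 21995. The interaction gave 727 genes with the Y-linked mean as covariate, 221 over all entries, 227 in the plain linear model and 225 to 464 without 1 array, and the cause was not tested. Leaving out 1 array gave 346 to 718 genes between kinds and 0 to 1 genes whose age difference differed between kinds (1 without mouse 3 at 7 months). Without mouse 1 at 7 months the low arrays held no 7-month mouse, so age could not be tested in them. The 346 genes between kinds are from that setting, where the kinds were compared at 4 months alone. Of 610 alternative values for 34 gene differences, 597 kept their call and moved by less than the spread, and 11 were the lost calls of Gm7609. The other 2 moved with the mean of a gene's entries, Ccn2 to -0.18 and Tmem47 to -0.25. The sign turned for Hspa1a. Of 592 alternative list medians 580 moved by less than the spread and 12 by more, and 70 values of 27 lists had the opposite sign. With the filter on dim genes the lymphocyte median was 0.077 and the plasma cell and immunoglobulin median 1.05 (0.17 with the replicate block). Without 1 array, the medians that moved were -0.070 and -0.066 for the proximal tubule, -0.075 to -0.054 for the clock, 0.23 for macrophages, and 0.0046 and 0.056 for senescence. The number of mice, 4 and 3, limits the precision.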

Other observations

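Erdr1 varied between control mice and was called neither between the ages nor between the kinds of array. It was at 8.42, 8.23, 10.55 and 10.13 at 4 months and at 9.92, 7.66 and 7.80 at 7 months. The brighter entry shared by the alpha globin genes Hba-a2 and Hba-a1, which was not tested because it names more than 1 gene, was at 9.62, 11.15, 10.16 and 9.76 and at 10.28, 10.24 and 9.85, highest in mouse 2 at 4 months.

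Nnmt, which methylates nicotinamide, was at 4.76, 4.34, 4.12 and 4.33 at 4 months and at 3.84, 3.51 and 4.03 at 7 months, with no overlap and no call. Mir145a, a microRNA gene of smooth muscle, was at 4.27, 4.71, 4.70 and 4.50 and at 4.14, 3.35 and 4.05, also without overlap or call.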
